A study of Mus musculus with 2 samples.

Results

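The 8 genes described here encode enzymes that make reactive oxygen species, itaconate or nitric oxide, or that act beside them. They are Cybb, Cyba, Ncf1, Ncf4, Acod1, Nos2, Sod2 and Arg1, chosen by name from the 31053 genes of the matrix, and were measured in every cell with at least 200 detected genes and at most 20% mitochondrial UMIs. All 8 are in the feature list under 1 identifier each. A UMI (unique molecular identifier) marks 1 captured RNA molecule, and levels are in CPM, a gene's UMIs for every 1000000 UMIs of the same set of cells. The study sorted Podoplanin+ CD31+ cells, without CD45+ leukocytes or Ghost dye-positive dead cells, from tissue around the cribriform plate that also took in olfactory bulb and nasal mucosa. All mice were female wild-type C57BL/6J, 10 weeks old. One sample pooled cells of 5 healthy mice. The other pooled cells of 5 mice with EAE, experimental autoimmune encephalomyelitis, an inflammatory disease of the central nervous system. Both were deposited in 1 matrix as barcodes ending in 1 or 2, and nothing in the sources used here ties an ending to a condition. Values are therefore given for library 1 and library 2 side by side, with no statement on EAE, no test between mice and no p-value. Intervals are exact 95% intervals that cover counting error only.

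In phagocytes, the NADPH oxidase moves electrons across a membrane onto oxygen and makes superoxide, the first product of the oxidative burst. Cybb encodes its catalytic subunit, and Cyba the membrane partner that Cybb protein needs to be stable. Ncf1 and Ncf4 encode cytosolic subunits that join the membrane pair on activation, together with a Rac GTPase. Acod1 encodes the mitochondrial enzyme that makes itaconate from cis-aconitate and is a known response gene of activated macrophages. Nos2 encodes the inducible enzyme that makes nitric oxide from arginine, Arg1 the arginase that uses the same substrate, and Sod2 the mitochondrial superoxide dismutase. Microglia, the resident macrophages of the central nervous system, are known to carry the phagocyte oxidase.

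Library 1 held 3406 kept cells with 25766058 UMIs (median 7334 per cell), and library 2 held 1922 with 20282053 UMIs (median 9782.5). The libraries shared 7 barcodes among the kept cells. Most kept cells formed microglia-like clusters, 3144 cells or 92.3% in library 1 and 1719 or 89.4% in library 2, although the sort was for CD31+ CD45- cells. The summed level of the 7 lymphatic endothelial markers was 28.3 CPM (library 1) and 6.90 CPM (library 2), so the labelled cell type was close to absent. Different clusters held the microglia-like cells of the libraries: clusters 1, 2, 3, 4, 5 and 9 those of library 1, and clusters 8, 13, 14, 15 and 16 those of library 2. The 20 genes of a dissociation-response list had a summed level of 61449 CPM (library 1) and 23266 CPM (library 2), and their part in the differences below was not tested. The members and their pathway genes were set aside before clustering.

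Promoter sequences show how the genes that differed most between the libraries compare, in letters, with one that differed less, Ncf1. RefSeq (GRCm38.p6) held a promoter for 5 of the 8 genes, namely Cybb, Cyba, Ncf1, Acod1 and Sod2, and the entries for Ncf4, Nos2 and Arg1 were missing. The sequences below are the 250 bases before the annotated start, 5′ to 3′ on the gene's strand. Capitals mark matches to 5 motifs searched on both strands: the PU.1 core GAGGAA, the interferon-stimulated response element (GAAA, any 2 bases, GAAA), the gamma-activated site (TTC, any 3 bases, GAA), the kappaB site (GGGA, any 2 bases, TTCC) and the AP-1 site TGANTCA. Cybb lies at chrX:9469325-9469574 on the minus strand, Acod1 at chr14:103046762-103047011 on the plus strand and Ncf1 at chr5:134229626-134229875 on the minus strand.
Cybb promoter: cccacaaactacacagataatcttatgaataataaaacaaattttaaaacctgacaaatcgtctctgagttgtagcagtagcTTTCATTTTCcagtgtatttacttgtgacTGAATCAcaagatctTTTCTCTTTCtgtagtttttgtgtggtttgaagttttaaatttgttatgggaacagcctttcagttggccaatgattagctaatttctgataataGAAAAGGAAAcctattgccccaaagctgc
Acod1 promoter: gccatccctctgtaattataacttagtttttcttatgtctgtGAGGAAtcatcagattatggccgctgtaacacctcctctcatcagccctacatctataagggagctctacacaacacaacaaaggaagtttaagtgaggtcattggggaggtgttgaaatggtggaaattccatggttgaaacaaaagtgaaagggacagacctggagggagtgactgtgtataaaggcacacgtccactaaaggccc
Ncf1 promoter: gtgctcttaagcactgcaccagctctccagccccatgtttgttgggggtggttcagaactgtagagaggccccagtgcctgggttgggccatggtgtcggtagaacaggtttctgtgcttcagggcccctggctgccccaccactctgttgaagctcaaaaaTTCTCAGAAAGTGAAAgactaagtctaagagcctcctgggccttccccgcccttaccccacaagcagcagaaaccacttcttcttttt
The Cybb window held 3 matches to the interferon-stimulated response element, at -168, -124 and -29 from the start, and 1 AP-1 match at -139. The 2 upstream matches lie on the other strand, so they read TTTCATTTTC and TTTCTCTTTC. Of 32851 promoters of the same length, 2.98% held the interferon-stimulated response element and 6.75% the AP-1 letters. The Ncf1 window held a gamma-activated site at -88 that overlaps an interferon-stimulated response element at -82, and 7.02% of all promoters held the former. The Acod1 window held 1 PU.1 core at -208 and no other match. Sod2 held a PU.1 core at -203 and a gamma-activated site at -185, and Cyba held none of the 5. For Cyba the bases after the start were not found near the start of an annotated transcript, unlike those of Cybb, Ncf1, Acod1 and Sod2. The place of the Cyba window is therefore less sure. The PU.1 core was in 23.3% of all promoters and the kappaB letters in 1.21%, the latter in no member. These matches are letters in a window, not binding sites, and no binding was measured.

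Of the 8 genes, Cybb and Acod1 were the ones far higher in library 2, Cyba and Ncf1 were moderately higher, Sod2 and Ncf4 were close to equal, and Nos2 and Arg1 were barely seen. The catalytic oxidase gene Cybb (ENSMUSG00000015340) had 462 UMIs in library 1, a level of 17.9 CPM (16.3 to 19.6), and 3883 UMIs in library 2, a level of 191 CPM (185 to 198). Its level was 10.7-fold higher in library 2 (9.69 to 11.8). The itaconate enzyme gene Acod1 (ENSMUSG00000022126) had 112 UMIs in library 1, 4.35 CPM (3.58 to 5.23), and 958 in library 2, 47.2 CPM (44.3 to 50.3). That is a 10.9-fold higher level (8.93 to 13.3). For both genes the intervals of the libraries lie far apart.

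Cyba and Ncf1, the genes of the membrane partner and of the organising cytosolic subunit, showed smaller differences in the same direction. Cyba (ENSMUSG00000006519) stood at 1073 CPM (1060 to 1086) in library 1 and 1816 CPM (1797 to 1834) in library 2, 1.69-fold higher (1.67 to 1.72). Ncf1 (ENSMUSG00000015950) stood at 186 CPM (181 to 191) and 259 CPM (252 to 266), 1.39-fold higher (1.34 to 1.45). Ncf4 (ENSMUSG00000071715), whose product binds the phosphoinositide of phagosome membranes, went the other way by a small amount, at 78.0 CPM (74.6 to 81.5) in library 1 and 70.9 CPM (67.3 to 74.7) in library 2, a ratio of 0.909 (0.849 to 0.974). The oxidase genes thus did not differ between the libraries by a common factor. Sod2 (ENSMUSG00000006818) stood at 70.9 CPM (67.7 to 74.2) in library 1 and 81.6 CPM (77.8 to 85.7) in library 2, a ratio of 1.15 (1.08 to 1.23).

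Nos2 (ENSMUSG00000020826) had 2 UMIs in 2 cells of library 1 and 3 UMIs in 3 cells of library 2. Arg1 (ENSMUSG00000019987) had 3 UMIs in 3 cells and 4 UMIs in 4 cells. No cell held more than 1 UMI of either gene. By a bound of 3 counts, a gene with 0 UMIs could stand at up to 0.116 CPM (library 1) or 0.148 CPM (library 2), so both genes lie near the lowest level that this depth can show. Neither direction nor absence can be read from these counts, and both genes stayed out of the counts of genes below for having under 20 UMIs.

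**Figure D1:**
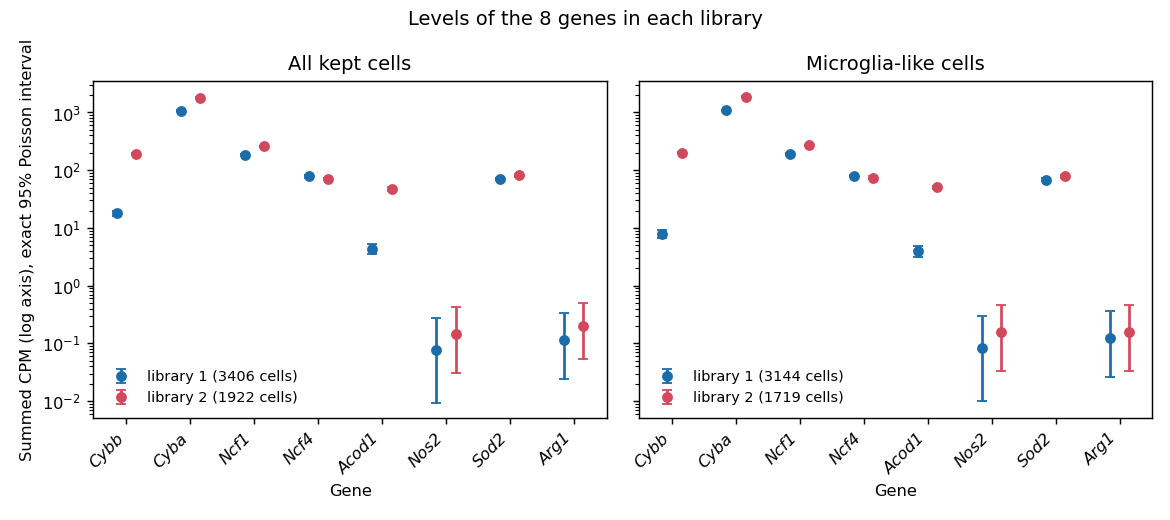
Summed level (CPM, log axis) of each of the 8 genes in all kept cells (left) and in microglia-like cells (right) of library 1 and library 2, with exact 95% Poisson intervals for counting error. Cybb and Acod1 stand about an order of magnitude higher in all kept cells of library 2 (191 against 17.9 CPM and 47.2 against 4.35 CPM), while Ncf4 and Sod2 nearly coincide and Nos2 and Arg1 lie near the floor.

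Set against all genes, 2 of the 6 members with at least 20 UMIs were at least 2-fold higher in library 2, where 14.2% of the 13891 genes tested were. None was at least 2-fold lower, where 8.37% were. Differences of at least 10-fold, reached by Cybb and Acod1, were found in 1.77% of genes. That size was not kept in every setting, since both intervals reach below 10-fold and without cluster 13 the ratios were 8.97 for Cybb and 9.43 for Acod1. The median log2 ratio was 0.62 for the 6 members and 0.04 for all genes. The members were named with earlier results of these data known, so these counts describe them and do not set them apart as a group.

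In the microglia-like clusters Cybb had 189 UMIs in 3144 cells of library 1, 7.87 CPM (6.79 to 9.08), and 3773 UMIs in 1719 cells of library 2, 202 CPM (195 to 208). The ratio was 25.6 (22.1 to 29.8), wider than over all kept cells. With the class taken instead from single cells with at least 5 of the 7 microglia markers the ratio was 10.4, and 218 Cybb UMIs of that class in library 1 lay in 29 border macrophage-like cells, beside 175 in 3114 cells of microglia-like clusters. In library 2 that class kept 1441 of the 1719 cells of microglia-like clusters, with 2711 of their 3773 Cybb UMIs. Both sides of the ratio thus changed. Among all kept cells of library 1, 261 of the 462 Cybb UMIs (56.5%) came from 54 border macrophage-like cells, a cluster led by Pf4, Ms4a7 and Mrc1, which held 0 cells of library 2. Cybb stood at 530 CPM (468 to 598) in those cells, with a UMI in 45 of the 54 (83.3%). Border macrophages are the macrophages of the meninges and vessel surroundings. These 54 cells also held the 7 microglia markers at a summed 5015 CPM, beside 2040 CPM for the 6 border macrophage markers. Whether some were microglia or mixed barcodes was not tested, and doublets may remain. By cluster name, most Cybb RNA of library 1 was outside its microglia-like cells. Without the border macrophage-like cells the ratio over kept cells was 24.1.

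Acod1 in microglia-like cells had 94 UMIs in library 1, 3.92 CPM (3.16 to 4.79), and 949 UMIs in library 2, 50.8 CPM (47.6 to 54.1). The ratio was 12.97 (10.5 to 16.2). Border macrophage-like cells held 1 Acod1 UMI, so this cluster, high in Cybb, was not high in the itaconate gene. In microglia-like cells the ratio was 1.73 for Cyba, 1.41 for Ncf1, 0.935 (0.872 to 1.002) for Ncf4 and 1.14 (1.06 to 1.22) for Sod2. Again 2 of 6 members were at least 2-fold higher and 0 at least 2-fold lower, beside 10.4% and 8.57% of the 12357 genes tested in these cells, and 1.54% of genes were at least 10-fold higher.

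Markers of other cell types were read in the same microglia-like cells. The 7 microglia markers (P2ry12, Tmem119, Siglech, Sall1, Fcrls, Gpr34 and Olfml3) had a summed level of 8852 CPM (library 1) and 2726 CPM (library 2). Of the 7, 6 were lower in library 2, among them Fcrls at 2608 CPM and 77.4 CPM and P2ry12 at 1508 CPM and 411 CPM, while Sall1 stood at 123 CPM and 132 CPM. The 6 monocyte markers summed to 3.62 CPM and 75.4 CPM, and Plac8 gave 1367 of the 1410 UMIs in library 2. The defining monocyte genes Ly6c2 and Ccr2 had 0 and 41 UMIs in library 1 and 9 and 11 UMIs in library 2. The border macrophage list summed to 14.7 CPM and 12.6 CPM. The neutrophil list summed to 171 CPM and 210 CPM, of which Csf3r gave 4097 of 4115 UMIs and 3908 of 3920, with the neutrophil genes Retnlg and Ly6g at 0 in both libraries. The astrocyte list summed to 104 CPM and 272 CPM and the olfactory ensheathing list to 3.92 CPM and 11.5 CPM. The dissociation list summed to 62942 CPM and 24421 CPM in these cells. The summed microglia and dissociation levels were lower, and the summed monocyte and astrocyte levels higher, in the library with more Cybb and Acod1, and their part in the ratios was not tested.

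The share of cells with at least 1 UMI followed the levels. Cybb was detected in 73 of 3144 microglia-like cells of library 1 (2.32%, 1.82% to 2.91%) and in 945 of 1719 of library 2 (55.0%, 52.6% to 57.3%). Acod1 was detected in 16 cells (0.509%, 0.291% to 0.825%) and 344 cells (20.01%, 18.1% to 21.98%). Because library 2 was deeper, each cell was also thinned to 1000 UMIs, which left out 87 shallower kept cells of library 1 and 15 of library 2. At that equal depth the share in microglia-like cells was 0.478% and 14.2% for Cybb, and 0.0957% and 3.79% for Acod1. Over all kept cells it was 63.1% and 80.2% for Cyba, 17.1% and 22.7% for Ncf1, 7.38% and 7.34% for Ncf4, and 6.96% and 7.81% for Sod2. The thinned Ncf4 shares were equal within their intervals, while 42.0% and 49.6% of kept cells had an Ncf4 UMI without thinning.

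Olfactory sensory neuron-like cells, which should lack the phagocyte oxidase, gave the background of free RNA. In library 2, 0 of 37 such cells (median 11227 UMIs) had a Cybb or an Acod1 UMI, which allows a share of up to 8.11% by the bound of 3 counts and 9.49% by the exact interval. Cyba was in 3 of the 37 (8.11%) and Ncf1 in 2 (5.41%), against 1713 of 1719 (99.7%) and 1547 (89.99%) microglia-like cells. Arg1 was in 1 of the 37, so a share as low as that of its 4 cells in library 2 cannot be told apart from background. Library 1 held only 7 neuron-like cells, 0 with a Cybb UMI, which allows up to 42.9% by the bound of 3 counts. Sod2, a gene of mitochondria in general, was in 31 of the 37 neuron-like cells at 197 CPM (159 to 241), above its 77.9 CPM in microglia-like cells of library 2. In library 1 its level was 177 CPM (140 to 221) in 64 nasal epithelial or sustentacular-like cells, against 68.5 CPM in microglia-like cells. Those 78 UMIs lay in 16 of the 64 cells, and the median depth of the 64 was 829.5 UMIs. After thinning, 2 of 24 such cells (8.33%) had a Sod2 UMI, beside 6.73% of microglia-like cells. The 64 cells also held the microglia markers at a summed 1680 CPM. Sod2 was thus detected outside the microglia-like cells in both libraries.

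The number of UMIs per cell separated the genes further. Cells with at least 5 Cybb UMIs numbered 33 in library 1 and 273 in library 2, and cells with at least 10 numbered 9 and 84. For Acod1, 7 and 51 cells had at least 5 UMIs, and 4 and 16 had at least 10. A single library 1 cell held 28 of its 112 Acod1 UMIs, and the 5 highest cells held 81 (72.3%). In library 2 the 5 highest cells held 9.71% of the Acod1 UMIs and 3.73% of the Cybb UMIs. The library 1 level of Acod1 therefore rests on very few cells, and without the highest cell of each library the ratio over kept cells was 14.1.

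**Figure D2:**
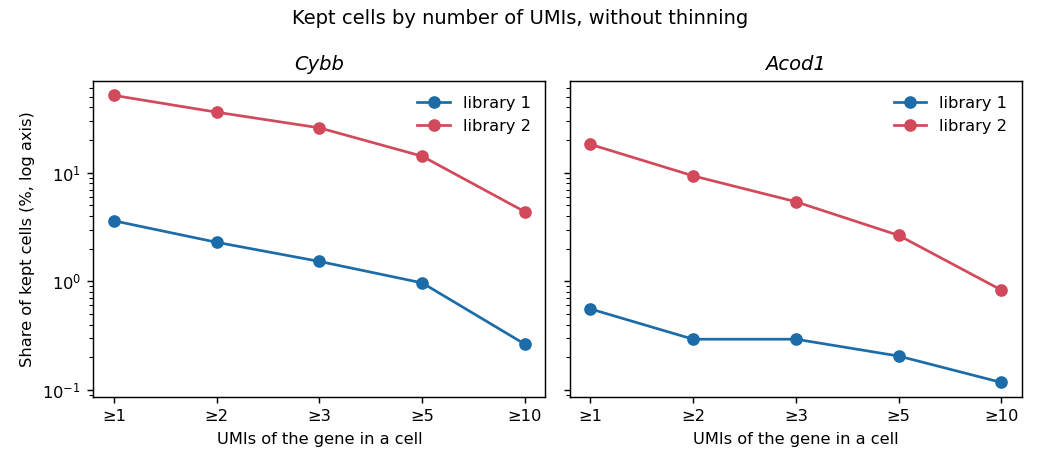
Share of kept cells (percent, log axis) by the number of UMIs of Cybb or Acod1 that the cell held, for library 1 and library 2, without thinning. For Cybb and Acod1 library 2 has the larger share of cells at each step, with 84 against 9 cells at 10 or more Cybb UMIs.

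Clusters were compared within a library, since most were held by 1 library and the library and the cell state then cannot be told apart. In library 2 the 5 microglia-like clusters ordered Cybb, Acod1 and Sod2 in nearly the same way, with cluster 13 highest and cluster 16 lowest for each. Cluster 13 (145 cells) was led by the interferon-gamma target chemokine gene Cxcl9 and by Cxcl13 and Ccl5, and its 10 highest folds also held Acod1, Cybb, Cd40 and Cd274. Cluster 16 (354 cells) was led by C4b and H2-Eb1, cluster 15 (553 cells) by the class II genes H2-Aa and H2-Ab1, cluster 8 (574 cells) by the type I interferon response genes Ifit3 and Rsad2, and cluster 14 (91 cells) by the division genes Mki67 and Top2a. Cybb stood at 80.7 CPM (71.0 to 91.3) in cluster 16, 156 CPM (146 to 166) in cluster 15, 172 CPM (162 to 183) in cluster 8, 326 CPM (295 to 359) in cluster 14 and 545 CPM (513 to 579) in cluster 13. Clusters 15 and 8 overlapped within their intervals and the others did not. Cybb was detected in 34.2% of cluster 16 cells and 91.0% of cluster 13 cells, and in 7.37% and 37.2% after thinning.

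Acod1 stood at 8.10 CPM (5.24 to 11.96) in cluster 16, 36.6 CPM (32.0 to 41.8) in cluster 8, 37.4 CPM (32.8 to 42.5) in cluster 15, 56.5 CPM (44.2 to 71.2) in cluster 14 and 199 CPM (180 to 219) in cluster 13. Clusters 8 and 15 did not differ beyond their intervals, while cluster 13 stood 24.5-fold above cluster 16. In cluster 13, 97 of 145 cells (66.9%) had an Acod1 UMI, 16.6% after thinning. Sod2 stood at 49.3 CPM (41.7 to 57.7) in cluster 16, 61.7 CPM (55.6 to 68.3) in cluster 8, 72.5 CPM (65.9 to 79.4) in cluster 15, 85.6 CPM (70.3 to 103) in cluster 14 and 184 CPM (166 to 204) in cluster 13. Neighbouring Sod2 levels overlapped up to cluster 14, and cluster 13 lay apart. Without cluster 13 the log2 ratio of Sod2 between the libraries was -0.01 over kept cells and -0.07 in microglia-like cells, so its small excess in library 2 rests on this cluster.

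The other oxidase genes varied little across the same clusters. The highest level was again in cluster 13, at 2331 CPM for Cyba, 307 CPM for Ncf1 and 85.5 CPM for Ncf4. The lowest was 1724 CPM for Cyba and 206 CPM for Ncf1, both in dividing cluster 14, and 61.6 CPM for Ncf4 in cluster 16. The highest level was 1.35, 1.49 and 1.39 times the lowest for Cyba, Ncf1 and Ncf4, beside 6.76 for Cybb, 24.5 for Acod1 and 3.74 for Sod2. In cluster 13 all 7 microglia markers were detected, summing to 1720 CPM, the monocyte list summed to 74.0 CPM with 138 of 147 UMIs from Plac8, and the dissociation list summed to 17465 CPM. In cluster 16 these sums were 3594, 47.0 and 21232 CPM. The median depth was 12687 UMIs in cluster 13 and 8523 in cluster 16, counting the cells of both libraries.

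In library 1 the 6 microglia-like clusters of 50 or more cells were all low in Cybb, from 1.03 CPM in cluster 5 to 8.67 CPM in cluster 2, which was led by Gadd45b and also held Il1a and Cxcl2 among its highest folds. Each of these 6 levels lay below the 80.7 CPM of the lowest cluster of library 2. Acod1 ranged from 0 UMIs in clusters 1, 4, 5 and 9 to 1.96 CPM in cluster 3. For the other members the 6 clusters spanned narrow ranges, 895 to 1293 CPM for Cyba, 171 to 211 CPM for Ncf1, 73.0 to 88.2 CPM for Ncf4 and 58.9 to 76.9 CPM for Sod2. Cluster 1 was highest for Cyba, Ncf1 and Ncf4, while cluster 2 was highest for Cybb and for Sod2.

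**Figure D3:**
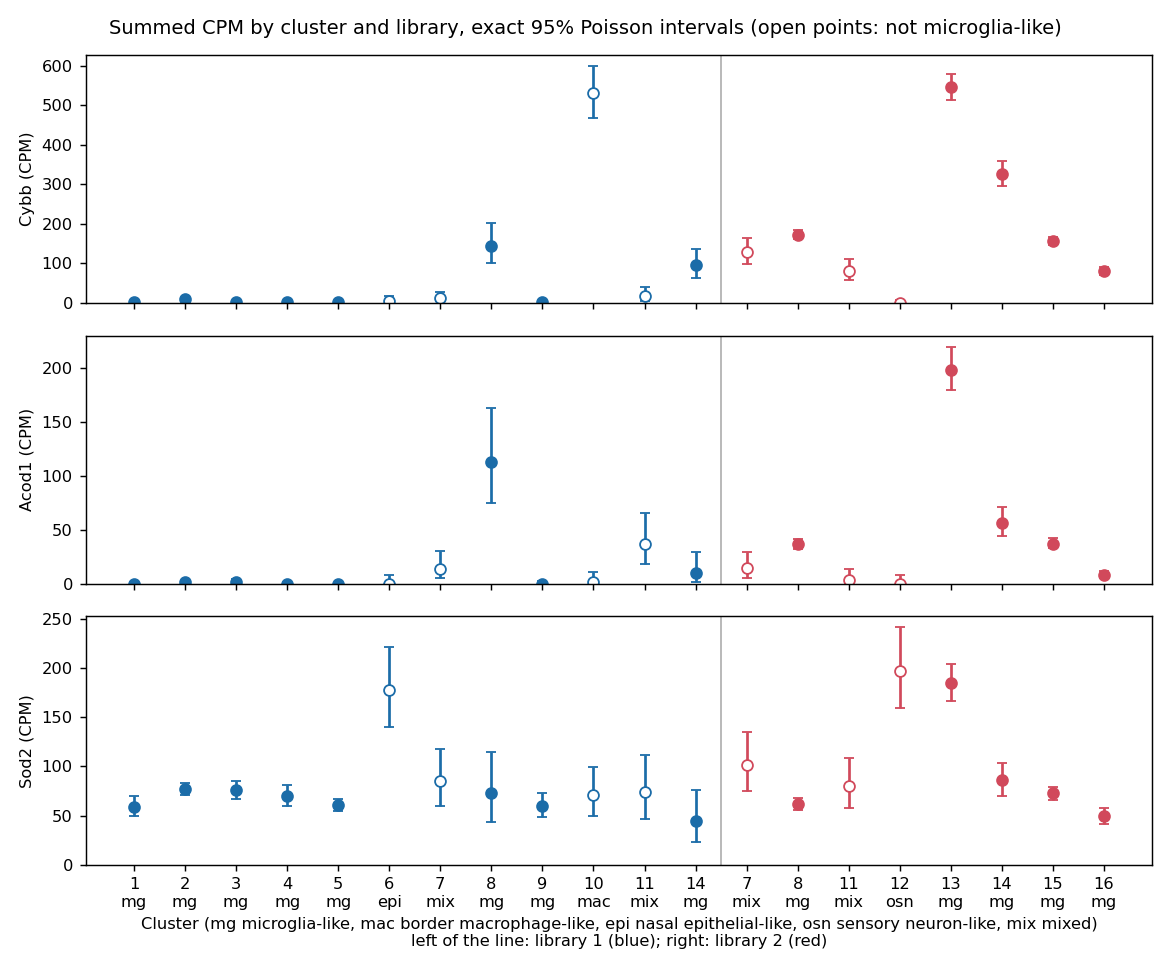
Level (CPM, linear axes) of Cybb, Acod1 and Sod2 in each cluster with at least 20 cells of a library, for library 1 (left) and library 2 (right), with exact 95% Poisson intervals and open points for clusters that are not microglia-like. Cluster 13 of library 2 is highest among microglia-like clusters for Cybb (545 CPM), Acod1 (199 CPM) and Sod2 (184 CPM), and border macrophage-like cluster 10 of library 1 is high for Cybb (530 CPM) but not for Acod1.

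A few clusters held at least 20 cells of each library, which allows the libraries to be set side by side among cells of like expression. In interferon cluster 8 (20 cells of library 1) Cybb stood at 145 CPM in library 1 and 172 CPM in library 2, a ratio of 1.19 (0.852 to 1.71). Acod1 went the other way there, 113 CPM in library 1 and 36.6 CPM in library 2, a ratio of 0.324 (0.218 to 0.499), from 28 UMIs in 4 cells of library 1. A single cell held 20 of the 28, and without the highest cell of each library the ratio was 0.792 (0.394 to 1.86), so the direction of Acod1 in this cluster rests on 1 cell. In dividing cluster 14 (21 cells of library 1) Cybb stood at 95.1 CPM and 326 CPM, 3.43-fold higher (2.34 to 5.22). One library 1 cell held 17 of its 28 Cybb UMIs there, and without the highest cell of each library the ratio was 7.40 (4.09 to 14.9). Acod1 there had 3 UMIs, all in 1 cell, and 72 UMIs, a ratio of 5.55 (1.82 to 27.5). The Cybb difference of the whole libraries was thus small in cluster 8 and kept its direction in cluster 14.

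Clusters 7 and 11 held markers of several cell types and were not named. In cluster 7 the libraries held unlike cells, so no ratio is read there. The red blood cell markers summed to 19065 CPM and 0 CPM, the blood endothelial markers to 1583 CPM and 538 CPM, and the fibroblast or mural markers to 318 CPM and 9088 CPM. Cybb stood at 11.5 CPM in library 1 and 129 CPM in library 2 in this cluster. In cluster 11 it stood at 16.8 CPM and 81.6 CPM, 4.87-fold higher (1.93 to 15.8), with all 5 UMIs of library 1 in 1 cell. Acod1 in cluster 7 had 6 and 7 UMIs. In cluster 11 it had 11 UMIs in 1 cell of library 1 and 2 UMIs in library 2, so 1 cell set the library 1 level.

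Only 25 cells of library 1 lay in clusters 8, 13, 15 and 16, which library 2 held by more than 10 to 1, and none of them was a shared barcode. They held 71 of the 189 Cybb UMIs of microglia-like cells in library 1, in 15 of the 25 cells, and 73 of the 112 Acod1 UMIs of all kept cells, in 7 of the 25. Without them the microglia-like ratio was 40.5 for Cybb and 57.3 for Acod1. Where these 25 cells came from was not tested.

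Detection in the same cell was counted for the oxidase genes. All of Cybb, Cyba, Ncf1 and Ncf4 were detected in 31 of 3144 microglia-like cells of library 1 (0.986%) and in 506 of 1719 of library 2 (29.4%). Cells with Cyba, Ncf1 and Ncf4 but without Cybb numbered 963 (30.6%) in library 1 and 332 (19.3%) in library 2. Cells with UMIs of the partners were thus common in library 1, and Cybb was the gene most often missing. After thinning to 1000 UMIs all 4 were seen together in 0 and 8 cells, so joint detection at equal depth was too sparse to compare.

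Acod1 was found more often in cells with Cybb than in cells without. In library 2, 255 of the 945 microglia-like cells with Cybb had an Acod1 UMI (27.0%), against 11.5% of those without. In library 1 it was 10 of 73 (13.7%) against 0.195%. After thinning the shares in library 2 were 6.58%, from 16 cells, and 3.33%. In library 1 0 of 15 thinned cells with Cybb had Acod1, but only 3 of 3135 thinned cells had it at all, too few to compare. Sod2 was in 64.8% of the library 2 microglia-like cells with Acod1 and 44.4% of those without. After thinning the order of these shares turned, 4.62% from 3 cells and 7.51%. Depth raises detection of both genes of a pair, and only the thinned shares hold it equal. With 3 such cells they cannot tell whether the Sod2 difference held at equal depth.

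Genes of like pattern were sought across clusters of at least 50 cells, by Pearson r of log2(CPM + 10), as a description of a few points that share a library. Across 7 clusters of library 2, the genes closest to Cybb among 5208 were Bcl2a1d (0.983), Bcl2a1a (0.981) and Acod1 (0.972). Those closest to Acod1 were Litaf (0.980), Cybb (0.972) and Csf2rb2 (0.968), so each of the pair was among the 3 genes nearest to the other. Those closest to Sod2 were Socs2 (0.954), C3 (0.953) and Ly6i (0.942). The nearest gene was B2m for Cyba (0.994), C1rl for Ncf1 (0.996) and Rragc for Ncf4 (0.981). Across 9 clusters of library 1 the nearest were Smagp for Cybb (0.961), Arhgap9 for Cyba (0.986), Ppfia4 for Ncf1 (0.995), Htra2 for Ncf4 (0.995), Rpl34 for Acod1 (0.972) and Uqcrq for Sod2 (0.976). These 9 include nasal epithelial or sustentacular-like cluster 6, mixed cluster 7 and border macrophage-like cluster 10. Cybb stood at 530 CPM in cluster 10 and 11.5 CPM in cluster 7. Cyba, Ncf1 and Ncf4 were lowest in cluster 6, at 368, 47.7 and 20.5 CPM, and Sod2 was highest there, at 177 CPM. The library 1 r values therefore reflect such clusters and are not read as patterns within microglia-like cells. The library 1 pattern of Acod1 rests on few UMIs, at most 11 in any of the 9 clusters. Its highest level there, in cluster 7, came from 6 UMIs of 1 cell, so no like gene of Acod1 is read in library 1. For Cybb, Cyba, Ncf1, Ncf4 and Sod2 no nearest gene was the same in both libraries. The library 2 set held mixed clusters 7 and 11, and only cluster 7 was in both sets. The sets thus cover unlike cells, so this is not read as a difference between the libraries.

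Around the members, 77 further genes were listed by role, of which 76 are in the feature list and 66 had at least 20 UMIs over the kept cells. Of these 66, 6 were at least 2-fold higher in library 2 and 7 at least 2-fold lower, and 53 lay within 2-fold, beside 14.2% and 8.37% of all genes. Their median log2 ratio was -0.07, and nothing particular to the lists is read from these counts. With a CPM total without mitochondrial, ribosomal protein and haemoglobin genes, the lower calls of Gclc, Gch1 and Rela, described below, lay within 2-fold. After a pseudocount of 10 CPM those of Txnrd1 and Srxn1 and the higher call of Ass1 did too. Among oxidase partners 6 of 12 genes could be compared and 1 was past 2-fold, Xdh, xanthine dehydrogenase, at 18 UMIs (0.699 CPM) in library 1 and 511 UMIs (25.2 CPM) in library 2, 36.1-fold higher. Rac2, the GTPase of the blood cell oxidase, stood at 133 CPM in library 1 and 221 CPM in library 2, a ratio of 1.66.

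Among the 16 of 17 superoxide and peroxide removal genes compared, 3 were at least 2-fold higher and 1 lower, with a median log2 ratio of 0.04. Gpx3, the extracellular glutathione peroxidase, stood at 1.20 CPM and 14.7 CPM, 12.2-fold higher in library 2. The other 2, named after their values were seen, were the peroxiredoxin gene Prdx5 at 214 CPM and 551 CPM and the thioredoxin gene Txn1 at 77.9 CPM and 210 CPM. Gpx1, the main cytosolic glutathione peroxidase, stood at 442 CPM and 398 CPM. The 1 lower gene, also named after its values were seen, was the thioredoxin reductase gene Txnrd1 at 61.6 CPM and 26.3 CPM. Of the 11 genes of the NRF2 and glutathione list, 8 had a lower level in library 2, as had 47.5% of all genes, and 2 were past 2-fold, Gclc (49.1 CPM and 23.4 CPM) and Srxn1 (11.6 CPM and 3.90 CPM), also named after the fact, with a list median of -0.47. Glutathione synthesis needs Gclc, and Srxn1 restores oxidised peroxiredoxins.

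In the arginine and nitric oxide list 11 of 14 genes were compared, 1 at least 2-fold higher and 2 lower, with a median of -0.22. The higher gene was Ass1, argininosuccinate synthase, which remakes arginine from citrulline, at 0.660 CPM and 6.80 CPM, 10.3-fold higher in library 2. Ass1 stood at 32.7 CPM (25.2 to 41.7) in cluster 13, 21.2 CPM (13.97 to 30.8) in cluster 14 and 0.972 CPM (0.200 to 2.84) in cluster 16 of library 2. Its highest and lowest of these clusters were thus also those of Acod1. The lower genes, named after their values were seen, were Ddah2 at 66.6 CPM and 13.9 CPM and Gch1 at 18.3 CPM and 8.53 CPM. Ddah2 is a dimethylarginine hydrolase family gene, and Gch1 makes the cofactor precursor of nitric oxide synthases. Arg2, the mitochondrial arginase, had 8 UMIs and 1 UMI, too few to compare.

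The 14 itaconate and tricarboxylic acid cycle genes had a median of 0.08, with 0 at least 2-fold higher and 1 lower, the mitochondrial isocitrate dehydrogenase gene Idh2 (123 CPM and 50.4 CPM), named after its values were seen. The cycle supplies the substrate of the Acod1 enzyme, and the highest log2 ratio in this list was 0.67. The 8 inducers had a median log2 ratio of -0.11. Irf1 stood at 234 CPM and 313 CPM (ratio 1.33), Irf8 at 474 CPM and 611 CPM, Cebpb at 676 CPM and 689 CPM, and Spi1, which encodes PU.1, at 527 CPM and 377 CPM. The NF-kappaB subunit gene Rela, named after its values were seen, was the 1 inducer at least 2-fold lower in library 2, at 102 CPM and 49.995 CPM.

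**Figure D4:**
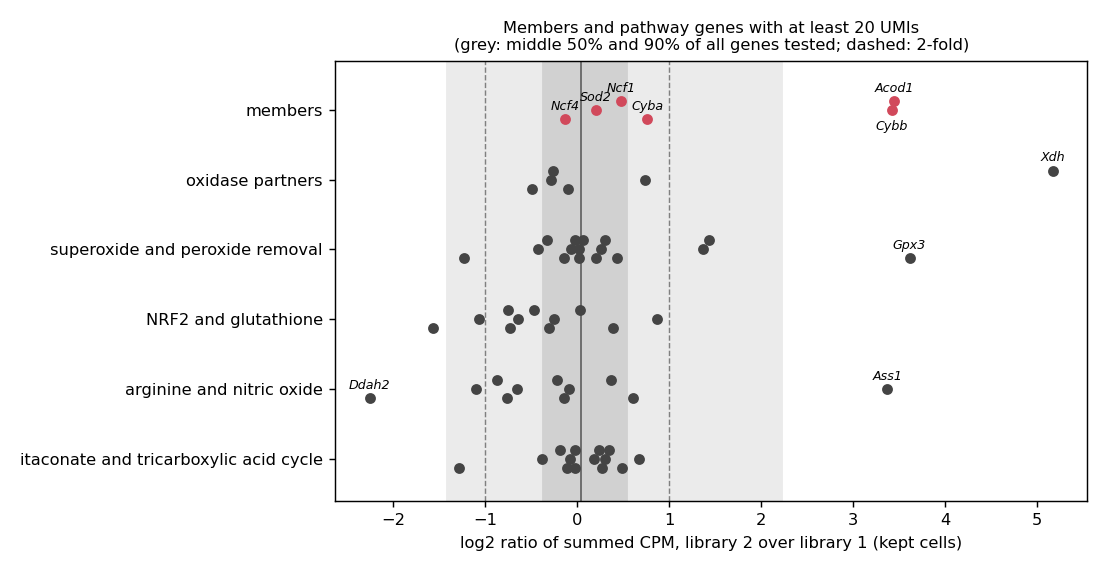
Log2 ratio of summed CPM, library 2 over library 1, in kept cells for the 6 members and the pathway genes with at least 20 UMIs, by list and without the inducers, with grey bands for the middle 50% and 90% of all genes tested and dashed lines at 2-fold. Cybb and Acod1 lie above the grey bands, as do Xdh, Gpx3 and Ass1, Ddah2 and Srxn1 lie below them, and most genes of each list lie within 2-fold.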

How the data were processed

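Values start from the deposited table of whole-number UMI counts (31053 genes, 6272 barcodes, 47541728 UMIs), with no normalization. The authors made these counts with Cell Ranger 3.1.0, per the file headers, and bcl2fastq and UMI-tools are named in the submitters' processing notes. Genome build: not given in the sources used here, and likewise the annotation and any equalising of depth.

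The cell filter of 200 genes or more and a mitochondrial share of 20% or less passed 5328 barcodes and failed 432 (library 1) and 512 (library 2). Scrublet called 5 cells (0.0938%), a rate at which the caller was treated as not having worked, so none was removed and doublets may remain. Cells were clustered (Scanpy 1.11.5 and igraph 0.11.9 under Python 3.11.15; intervals with SciPy 1.17.1; 2000 variable genes without the members and pathway genes, 30 principal components, 15 neighbours, Leiden resolution 1). A cluster was named from at least 3 fixed markers among its 50 highest folds, and called mixed where 2 or more lists other than microglia qualified. It was called microglia-like where no other list qualified and at least 5 of 7 microglia markers reached 100 CPM. Names rest on transcripts alone. Levels carry exact Poisson intervals, shares exact binomial (Clopper-Pearson) intervals, and ratios exact conditional intervals. The ratio code was tested on simulated counts with known fold changes. The interval code was not part of that test. Genes with at least 20 UMIs over both libraries were compared.

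With 1 pooled library on each side there is no replicate check and no test, and fewer transcribing cells and less RNA per cell are told apart only as far as shares per cell allow. The members, lists, tests and alternatives were chosen with earlier results of these data known. Named were all members, the 4 pathway genes with the highest level, the 4 with the largest ratio, fixed pathway genes (among them Rac2, Ass1, Arg2 and Irf1) and, for each member with at least 100 UMIs in a library, the genes of most like pattern among those with at least 500 UMIs. Some genes that the rule names are not reported here. Alternatives covered the cell filter, the CPM total, the weighting of cells, the gene filter, the pseudocount, thinning, clustering resolution and the class definition.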

Additional observations from a re-analysis of the deposited data

How the results depend on the processing

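Of the recomputed counts of genes past 2-fold, 64 stayed within 1.5 times their main value and 2 did not. Single members' values moved more often: 33 log2 ratios, 19 levels and 37 thinned shares left the counting interval of the main value, while 158, 45 and 27 stayed in it. These tallies take in Nos2 and Arg1, whose wide intervals hold nearly any value. In kept cells their ratio intervals ran from 0.218 to 22.8 for Nos2 and from 0.287 to 11.6 for Arg1. The values of Nos2 and Arg1 that stayed therefore say little about stability. The counts that moved were both of the number of pathway genes at least 2-fold lower in library 2, 7 as reported, which was 4 with a CPM total without mitochondrial, ribosomal protein and haemoglobin genes and 2 after a pseudocount of 10 CPM. Cybb and Acod1 stayed at least 2-fold higher in library 2 in all 12 alternatives, over kept cells and in microglia-like cells. For kept cells the Cybb ratio ran from 7.21 (pseudocount of 10 CPM) to 24.1 (without border macrophage-like cells) and the Acod1 ratio from 3.99 (the same pseudocount) to 30.8 (without the 25 library 1 cells in clusters of library 2). In microglia-like cells the Cybb ratio was lowest, 10.4, with a class taken from markers of single cells alone, which held 3214 and 1491 cells. The log2 ratio of Ncf4 in microglia-like cells was -0.10 as reported and 0.03 with the reduced CPM total, so its direction depends on the scaling. That of Sod2 was 0.19 as reported and -0.01 with the class from markers alone. The alternatives that leave out cells, clusters or shared barcodes were chosen after seeing the data. No paired analysis was possible because each library is 1 pool, and for the same reason no replicate could be left out. Depth limits Nos2 and Arg1, at 2 to 4 UMIs a library, for which no ratio was read.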

Other observations

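Barcodes that failed the cell filter were read for the same genes. The 432 of library 1 (median 817 UMIs) held 0 Cybb and 0 Acod1 UMIs, with Cyba at 63.6 CPM and Sod2 at 59.6 CPM. The 512 of library 2 (median 1514 UMIs) held 8 Cybb UMIs in 4 barcodes (8.08 CPM) and 3 Acod1 UMIs, with Cyba at 133 CPM and Sod2 at 80.8 CPM. Cyba, far lower there than in kept cells of either library, and Sod2, at about its level in kept cells, differ in this respect.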
